A study of Mus musculus with 88 samples.

Results

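The subunits of the respiratory chain and of the ATP synthase were followed in mouse dendritic cells by pulsed SILAC, a mass spectrometry method that separates protein made before a change of medium from protein made after it. Members were chosen by gene symbol: the first gene name of a protein group had to begin with Ndufa, Ndufb, Ndufc, Ndufs, Ndufv, Uqcr, Cox4 to Cox8 or Atp5, or be Cyc1, Cycs, mt-Co2 or Mtco2, with the Ndufaf assembly factors left out. Of the 5899 protein groups kept from the trypsin digest, 67 met this rule. One of them, Cox4nb, shares only the letters of its name, since it is a subunit of a membrane protein complex of the endoplasmic reticulum, and its values are given apart. The other 66 comprised 35 subunits of complex I, 9 of complex III, 10 of complex IV, among them Ndufa4, and 12 of complex V.

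The cells were bone marrow-derived dendritic cells grown with GM-CSF from female C57BL/6J mice. They carried medium-heavy (M) arginine and lysine until 0 h, when all cells were pooled and moved to heavy (H) medium, so that M marks protein present before 0 h and H protein made afterwards. On day 9 they received 100 ng/ml LPS, a bacterial outer membrane component, or no stimulus (mock), and each lysate was mixed with the same unlabelled (L) cells as a common standard. The labels give 21 groups of 2 runs, namely 0 h and both treatments at 0.5 h, hourly from 1 to 6 h and at 9, 12 and 24 h, while the description of the design ends at 12 h. They do not say whether 2 runs of a group came from separate cultures, so the p-values here measure the spread between these runs, which may be technical. Lysates with unlabelled cells at 0 h were also digested with AspN and with LysN, 2 samples each.

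The ratio M/L gives pre-existing protein, H/L newly made protein, their sum total protein, and H/M replacement. M/L, H/L and their sum were divided by a factor for each run, the median of the sum over 2628 proteins with M/L in every run, so every change below is relative to the median protein. On the log2 scale these factors ran from -0.68 to 0.69, with the highest in the second LPS run at 12 h. Between 3575 and 4338 proteins had M/L in a run. Of the 7 dendritic cell and leukocyte markers with a protein group, 6 could be tested, and Cd80 had no group. Granulocyte markers, led by S100a8 and S100a9, made up 4.43 and 4.67% of the summed iBAQ (intensity per expected peptide) at 0 h, and 8 of 8 lymphocyte markers had no group. A lower share of one cell type and less protein per cell cannot be told apart in such bulk lysates.

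Complex I takes electrons from NADH through a peripheral arm, with its NADH-oxidising (N) and quinone-reducing (Q) modules, and pumps protons through a membrane arm. Complex III passes electrons from ubiquinol to cytochrome c, complex IV passes them to oxygen, and complex V lets protons flow back through its membrane part to drive ATP synthesis in its F1 head. In dendritic cells, activation through Toll-like receptors is known to move metabolism from oxidative phosphorylation towards glycolysis.

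Most subunits are encoded in the nucleus, and NRF1, YY1 and ERR factors are known regulators of many of their genes. Promoters from RefSeq (assembly GRCm38.p6, a fixed window around each gene's start) matched 53 of the members. The 4 shown were picked from subunits whose pre-existing protein was lower in LPS than in mock cells at 24 h. They come from complexes I, III, IV and V, and capitals mark the motif. The promoter of Uqcrc1 (chr9:108936398-108936697, plus strand) carries GCGCATGCGC, in which the 9-base NRF1 core reads on both strands, 31 bases after the start. Cox6a1 (chr5:115348909-115349208, minus strand) holds the same 10 bases. Ndufs4 (chr13:114388045-114388344, minus strand) and Atp5j (chr16:84834927-84835226, minus strand) hold AAGATGGCG, the YY1 motif.
Uqcrc1: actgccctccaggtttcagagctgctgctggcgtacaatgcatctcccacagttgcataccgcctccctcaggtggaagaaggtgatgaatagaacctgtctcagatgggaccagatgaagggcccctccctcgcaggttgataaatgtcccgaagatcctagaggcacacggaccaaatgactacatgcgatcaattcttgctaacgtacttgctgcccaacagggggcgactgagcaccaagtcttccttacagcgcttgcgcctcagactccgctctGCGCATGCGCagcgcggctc
Cox6a1: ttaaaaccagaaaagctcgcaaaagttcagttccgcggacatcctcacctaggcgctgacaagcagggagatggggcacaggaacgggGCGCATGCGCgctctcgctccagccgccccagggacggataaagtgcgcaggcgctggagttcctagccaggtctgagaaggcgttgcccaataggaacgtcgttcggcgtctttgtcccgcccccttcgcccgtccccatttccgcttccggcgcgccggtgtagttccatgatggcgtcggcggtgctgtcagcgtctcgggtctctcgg
Ndufs4: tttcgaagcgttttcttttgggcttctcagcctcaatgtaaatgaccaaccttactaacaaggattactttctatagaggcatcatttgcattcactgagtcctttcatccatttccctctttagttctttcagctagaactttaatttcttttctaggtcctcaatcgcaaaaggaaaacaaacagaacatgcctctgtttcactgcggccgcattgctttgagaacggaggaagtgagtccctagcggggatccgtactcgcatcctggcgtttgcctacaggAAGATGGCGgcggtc
Atp5j: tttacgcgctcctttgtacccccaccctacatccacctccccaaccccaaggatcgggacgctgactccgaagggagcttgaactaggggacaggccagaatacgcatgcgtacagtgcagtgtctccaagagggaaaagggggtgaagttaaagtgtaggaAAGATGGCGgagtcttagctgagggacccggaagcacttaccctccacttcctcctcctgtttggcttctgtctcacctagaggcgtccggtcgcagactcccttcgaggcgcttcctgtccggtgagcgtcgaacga
On either strand, GCGCATGCG was present in 7 of the 53 promoters (13.2%) and in 1.95% of the 27025 genes in the table. The members with it were Atp5i, Atp5l, Cox6a1, Ndufa11, Ndufa8, Uqcr11 and Uqcrc1. AAGATGGCG was present in 6 (11.3%) against 1.64% of all genes, namely Atp5j, Atp5j2, Ndufa9, Ndufs4, Ndufs6 and Ndufs7. TCAAGGTCA, the ERR element, was in 0 of the 53 and in 0.466% of all genes. No member held more than one of the 3 motifs, as 13 held any. These matches are a description of letters in a window, and the protein values of members with and without them were not compared. Other members with a motif, Atp5i, Atp5l, Atp5j2 and Uqcr11, were not called lower in pre-existing protein at 6 to 12 h or at 24 h. At 6 to 12 h, Ndufa8, Ndufa9, Ndufa11, Ndufs6, Ndufs7 and the Cox6a1 shown above were not called either.

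Coverage differed widely between subunits. M/L was measured in all 42 runs for 46 of the 66, in 1 to 35 runs for 10, and in none for Ndufa1 and Ndufa3, small subunits of the complex I membrane arm. H/L was measured in all runs for 43. The median number of peptide pairs behind an M/L value ran from 2 to 260 per subunit, with a median of 10.5. Among the groups, 3 list a second gene name, Atp5h with Gm10250, Atp5i with Atp5k, and Mtco2 with mt-Co2. Some groups hold peptides that are not unique to them. Unique were 1 of 4 peptides of Atp5l, 2 of 5 of Atp5j2, 5 of 7 of Uqcrq, 13 of 14 of Cox4i1 and 27 of 28 of Uqcrc1.

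At 0 h the subunits spanned a wide range of iBAQ, which compares proteins per expected peptide. Expressed over the members' median in the same run, Atp5b, the catalytic F1 beta subunit, was highest at 83.4 and 68.0. Atp5a1, the alpha subunit beside it, stood at 42.3 and 36.3, Cox6b1 at 41.1 and 27.0 and Cox5a at 28.4 and 29.7. The runs place Cox6b1 and Cox5a in opposite orders, so their order is not resolved. The lowest by the mean of both runs was Ndufb7 of the membrane arm, at 0.0623 and 0.0536. Medians by complex, over the mean of both runs, were 0.454 for complex I, 3.43 for complex III, 4.77 for complex IV and 8.45 for complex V. The ratio of the complex V to the complex I median was 18.6 here and 16.7 with intensity per residue in place of iBAQ. In AspN and LysN digests it was 10.9 and 8.01, each quantified apart and over fewer subunits. The complex V median was thus above that of complex I in each of the 3 digests. The ratio was 24.3 and 15.9 in the 2 trypsin runs taken singly. An effect of the enzyme on its size cannot be told apart from the subunits covered. Complex IV had a lower median than complex V with trypsin, and a higher one with AspN (6.77 against 3.09) and LysN (5.24 against 4.59).

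**Figure D1:**
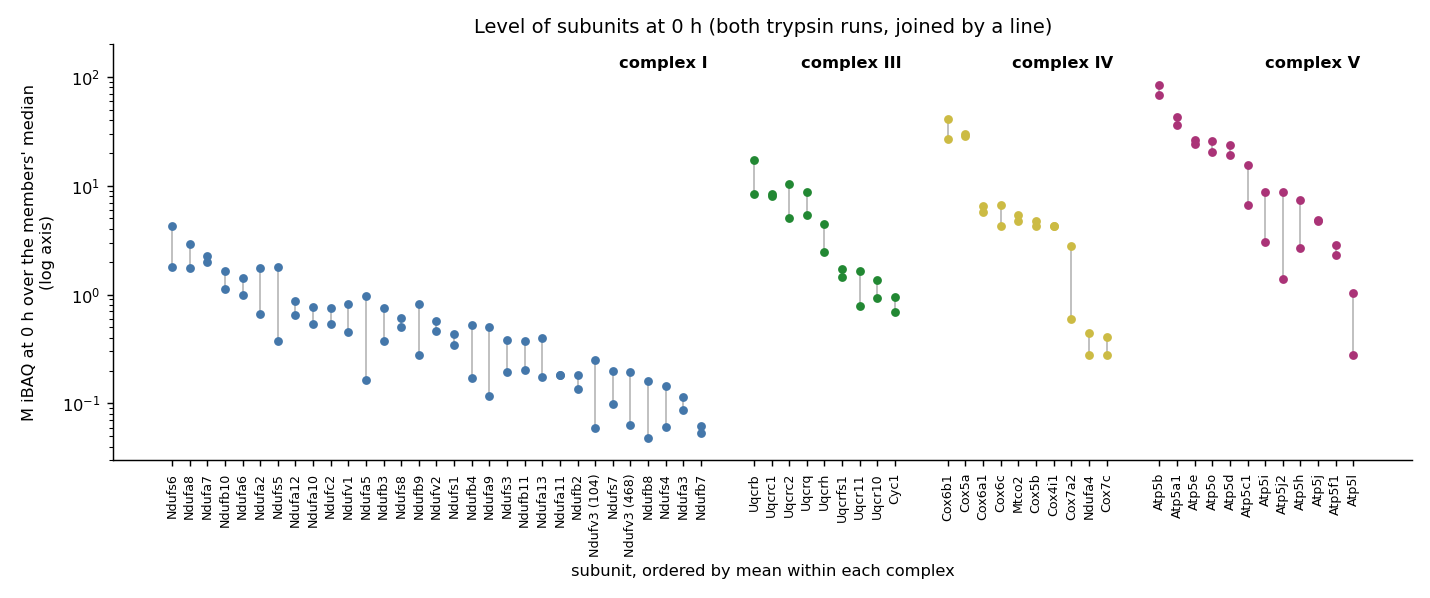
Level of subunits at 0 h as iBAQ of the M channel over the members' median, on a log axis, with both trypsin runs as points joined by a line. Atp5b stands highest at 83.4 and 68.0, and most complex I subunits lie below 1.

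Pre-existing subunits were lower in LPS than in mock cells from 9 h on, and further so at 24 h. Over the 54 subunits with enough runs, the median scaled M/L was 0.804 and 0.849 at 0 h. At 24 h it was 1.02 and 1.05 in mock cells and 0.672 and 0.684 in LPS cells, so the arms did not overlap. Over 6, 9 and 12 h, limma with Benjamini-Hochberg adjustment called 23 of 55 subunits lower and 0 higher, against 13.6% of all proteins called lower. The members' median log2 change was -0.22 and that of all 3432 proteins -0.02. At 24 h it called 38 of 53 lower and 0 higher, against 27.6% of all proteins, with medians of -0.63 and -0.07.

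With the replicate number as a block 28 were called at 6 to 12 h, the 5 added being Cox6a1, Ndufa2, Uqcrb, Atp5d and Ndufs7. These counts rest on scaling the runs to one another. Without the run factor limma called 0 of 55 and 0 of 53 subunits (0 at an unadjusted p under 0.05 in both windows). The members' medians were then -0.06 and -0.39, beside 0.15 and 0.17 for all proteins. The factors differed between replicates, as in mock cells at 12 h (-0.53 and -0.05). That fit holds this offset in its spread, so its 0 calls do not decide whether the subunits changed. With each ratio centred on its own run median instead, 21 of the 23 and 35 of the 38 calls were kept. With only the first or only the second replicates, 3 or 15 subunits were called at 6 to 12 h, in fits that pool the times of an arm for their spread.

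**Figure D2:**
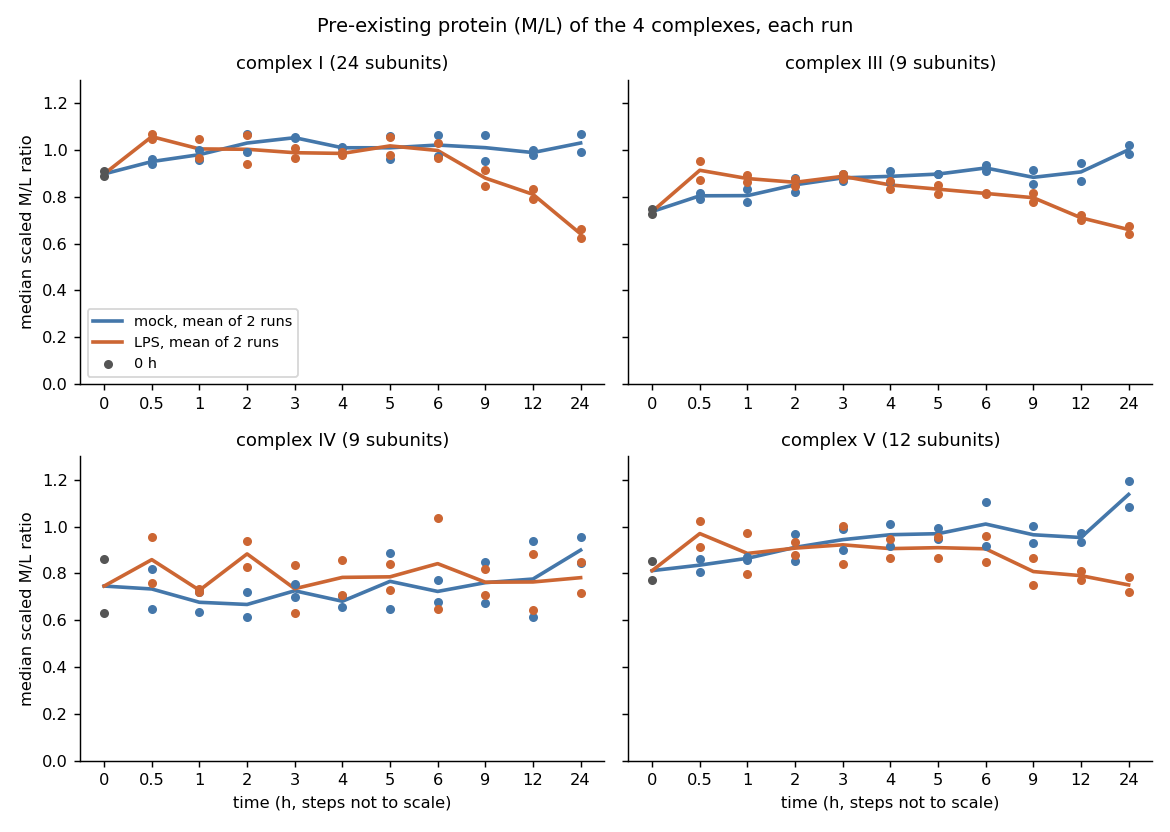
Median scaled M/L ratio of complexes I (24 subunits), III (9), IV (9) and V (12) in each run against time, blue for mock, orange for LPS and grey for 0 h; lines join the mean of 2 runs and the time steps are not to scale. In complexes I, III and V the LPS runs lie below the mock runs at 9, 12 and 24 h, while the arms of complex IV overlap at these times.

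No subunit was called lower at the first times. At 0.5 h the members' median log2 change was 0.20, with 50 of 52 above 0, and 1 subunit was higher by the test, against 1.16% of all proteins. This was Uqcrh, the hinge protein of complex III, at 0.34 ± 0.07 (SE, adjusted p = 0.0114, limma). Its M/L was 0.659 and 0.739 in mock and 0.886 and 0.885 in LPS runs at that time. Before scaling, the median log2 M/L of all proteins at 0.5 h was -0.54 and -0.09 in mock and -0.66 and -0.19 in LPS runs. The log2 run factors were -0.32 and 0.12 against -0.44 and 0.04. The share of all proteins above 0 is not given here, and the cause of the members' early shift was not tested. Between 1 and 3 h, 0 of 56 subunits were called in either direction by limma (18 at an unadjusted p under 0.05), against 0.332% of all proteins called lower, and the median was 0.01. Values of both signs lie behind this median. Uqcrc1, Atp5b and Ndufv1 were at -0.10 ± 0.03, -0.10 ± 0.04 and -0.15 ± 0.05, each lower in 6 of 6 pairs. Mtco2, Cox4i1 and Atp5h were at 0.53 ± 0.19, 0.53 ± 0.21 and 0.48 ± 0.20, each higher in 5 of 6 pairs. At 9 h 9 of 53 subunits were lower (4.36% of all proteins), and at 12 h 18 of 52 (10.4%). Tested as a difference of differences, the change at 6 to 12 h was lower than that at 1 to 3 h for 8 subunits (5.17% of all proteins). The change at 24 h was lower than that at 6 to 12 h for 25 of 52 (14.0% of all proteins), 14 of them in complex I, 4 in III, 3 in IV and 4 in V.

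In complex I, 10 of 25 subunits were lower in LPS than in mock cells at 6 to 12 h and 21 of 24 at 24 h, with medians of -0.22 and -0.68. Ndufs8, which carries iron-sulfur clusters of the Q module, had M/L of 0.879 and 0.791 at 0 h. It was 0.927 and 0.975 in mock and 0.643 and 0.628 in LPS runs at 24 h, so that LPS cells were below both other groups. Its log2 change was -0.27 ± 0.04 at 6 to 12 h (adjusted p = 3.57e-05, limma, lower in 6 of 6 pairs) and -0.58 ± 0.07 at 24 h (adjusted p = 6.42e-07). Ndufa6, an accessory subunit of the peripheral arm, had the lowest value of the complex at 24 h. Its M/L was 0.979 and 1.20 in mock against 0.555 and 0.552 in LPS runs, a log2 change of -0.97 ± 0.17 (adjusted p = 0.000102, limma). Ndufa7, another accessory subunit, was at 0.912 and 1.01 in mock and 0.458 and 0.553 in LPS runs, a change of -0.93 ± 0.13. The arms were apart for each of these 3.

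The N module, which oxidises NADH, had 6 of 10 tested subunits lower at 6 to 12 h and 9 of 10 at 24 h. Ndufv1, which binds the flavin, changed by -0.25 ± 0.05 and -0.59 ± 0.09 on the log2 scale in these windows, with 1.07 and 1.05 in mock and 0.726 and 0.687 in LPS runs at 24 h. Ndufs1, the largest iron-sulfur subunit, changed by -0.21 ± 0.06 and -0.46 ± 0.10. Ndufs4, an accessory subunit whose promoter is shown above, changed by -0.34 ± 0.07 and -0.86 ± 0.12. In the Q module, 3 of 5 were lower at 6 to 12 h and 5 of 5 at 24 h. Ndufs3 of the same module was at -0.05 ± 0.10 in the earlier window (adjusted p = 0.847, limma) and changed by -0.47 ± 0.17 at 24 h.

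The membrane arm was covered less, with 10 of its 19 subunits tested at 6 to 12 h and 9 at 24 h. In its part near the peripheral arm, 1 of 6 was lower at 6 to 12 h, which was Ndufa10, and 5 of 5 at 24 h. In the far part, 0 of 4 and 2 of 4 were lower, the latter Ndufb9 and Ndufb10. At 24 h the uncalled subunits of complex I were Ndufb8 at 0.14 ± 0.39, the longer Ndufv3 group at -0.11 ± 0.26 and Ndufb11 at -0.47 ± 0.27. Differences between modules, and between the 4 complexes, were not tested.

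In complex III, 4 of 9 subunits were lower in LPS than in mock cells at 6 to 12 h and 6 of 9 at 24 h. Uqcrc1, a matrix-facing core protein, had M/L of 0.747 and 0.724 at 0 h. Over 6 to 12 h its lowest, median and highest M/L were 0.854, 0.905 and 0.969 in mock and 0.712, 0.759 and 0.817 in LPS runs. At 24 h it was 0.967 and 1.02 in mock and 0.681 and 0.677 in LPS runs. The arms did not overlap in either window, and the log2 changes were -0.25 ± 0.03 (adjusted p = 1.14e-05, limma) and -0.55 ± 0.06 (adjusted p = 6.93e-08). Its partner Uqcrc2 changed by -0.32 ± 0.05 and -0.58 ± 0.08.

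Uqcrfs1, the Rieske iron-sulfur protein, was at 0.982 and 1.06 in mock and 0.614 and 0.677 in LPS runs at 24 h and changed by -0.27 ± 0.04 and -0.67 ± 0.07 in the 2 windows. Uqcrh was at 0.990 and 0.963 in mock and 0.587 and 0.611 in LPS runs at 24 h, a change of -0.70 ± 0.07 (adjusted p = 1.21e-08, limma), the smallest adjusted p among the members there. Uqcrb had the lowest value of the complex, -0.80 ± 0.16, and Uqcrq, like Uqcrb a small subunit, changed by -0.54 ± 0.19. Cyc1, the cytochrome c1 that hands electrons to cytochrome c, was not called at 24 h, at -0.24 ± 0.27, and neither were Uqcr10 at -0.29 ± 0.42 and Uqcr11 at 0.35 ± 0.44.

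In complex IV, 3 of 9 subunits were lower in LPS than in mock cells at 6 to 12 h, the nuclear-encoded Cox5a, Cox5b and Cox6b1, which lie outside the membrane core. With Cox6a1 they made 4 of 8 at 24 h. Cox5a, on the matrix side, had M/L of 0.858 and 0.861 at 0 h, 1.22 and 1.35 in mock and 0.787 and 0.780 in LPS runs at 24 h. Cox5b, also on the matrix side, was at 1.23 and 1.57 in mock and 0.843 and 0.847 in LPS runs. Cox6b1, on the intermembrane side, was at 0.933 and 0.962 against 0.575 and 0.606. The arms of all 3 were apart, with log2 changes of -0.71 ± 0.10, -0.72 ± 0.09 and -0.68 ± 0.08, each called by limma, and Cox6a1 changed by -0.59 ± 0.16.

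Mtco2, the core subunit encoded by mitochondrial DNA, was at 0.718 and 0.492 in mock and 0.647 and 0.672 in LPS runs at 24 h. These arms overlap, and the change was 0.15 ± 0.33 (adjusted p = 0.772, limma). Cox4i1 was at 0.08 ± 0.36, Cox6c at 0.17 ± 0.39 and Cox7c at -0.14 ± 0.30, and none was called in either window. At 6 to 12 h the values of Mtco2, Cox4i1 and Cox6c were 0.14 ± 0.19, 0.15 ± 0.21 and 0.10 ± 0.23.

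In complex V, 6 of 12 subunits were lower in LPS than in mock cells at 6 to 12 h and 7 of 12 at 24 h. In the F1 head and central stalk, 4 of 5 and 5 of 5 were lower. Atp5b had M/L of 0.788 and 0.756 at 0 h, 1.03 and 1.10 in mock and 0.716 and 0.704 in LPS runs at 24 h, a change of -0.58 ± 0.06 (adjusted p = 1.60e-07, limma). At 6 to 12 h it changed by -0.27 ± 0.04. Atp5a1 changed by -0.28 ± 0.05 and -0.64 ± 0.09, and at 24 h was at 1.07 and 1.19 in mock against 0.714 and 0.730 in LPS runs. Neither subunit's arms overlapped at 24 h. The stalk subunits Atp5c1 and Atp5e changed by -0.27 ± 0.07 and -0.30 ± 0.07 at 6 to 12 h and by -0.68 ± 0.13 and -0.67 ± 0.12 at 24 h, and Atp5d by -0.73 ± 0.16 at 24 h.

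In the peripheral stalk of complex V, Atp5o, which joins the stalk to the F1 head, and Atp5j changed by -0.69 ± 0.11 and -0.74 ± 0.09 at 24 h. Atp5f1 and Atp5h were not called, at -0.02 ± 0.34 and 0.00 ± 0.35, and the difference from the other two was not tested. The membrane subunits Atp5i, Atp5l and Atp5j2 had standard errors of 1.21 to 1.62 at 24 h. In these 3, the first run was above the second in 21 of 21 groups. For Atp5i, M/L was 1.22 and 0.356 at 0 h, 1.46 and 0.441 in mock and 1.39 and 0.371 in LPS runs at 24 h. With the replicate number as a block the standard errors fell to between 0.27 and 0.36, and the changes at 24 h, -0.16, 0.04 and 0.27, were not called either. Uqcr11 of complex III showed the opposite order, the second run above the first in 21 of 21 groups.

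**Figure D3:**
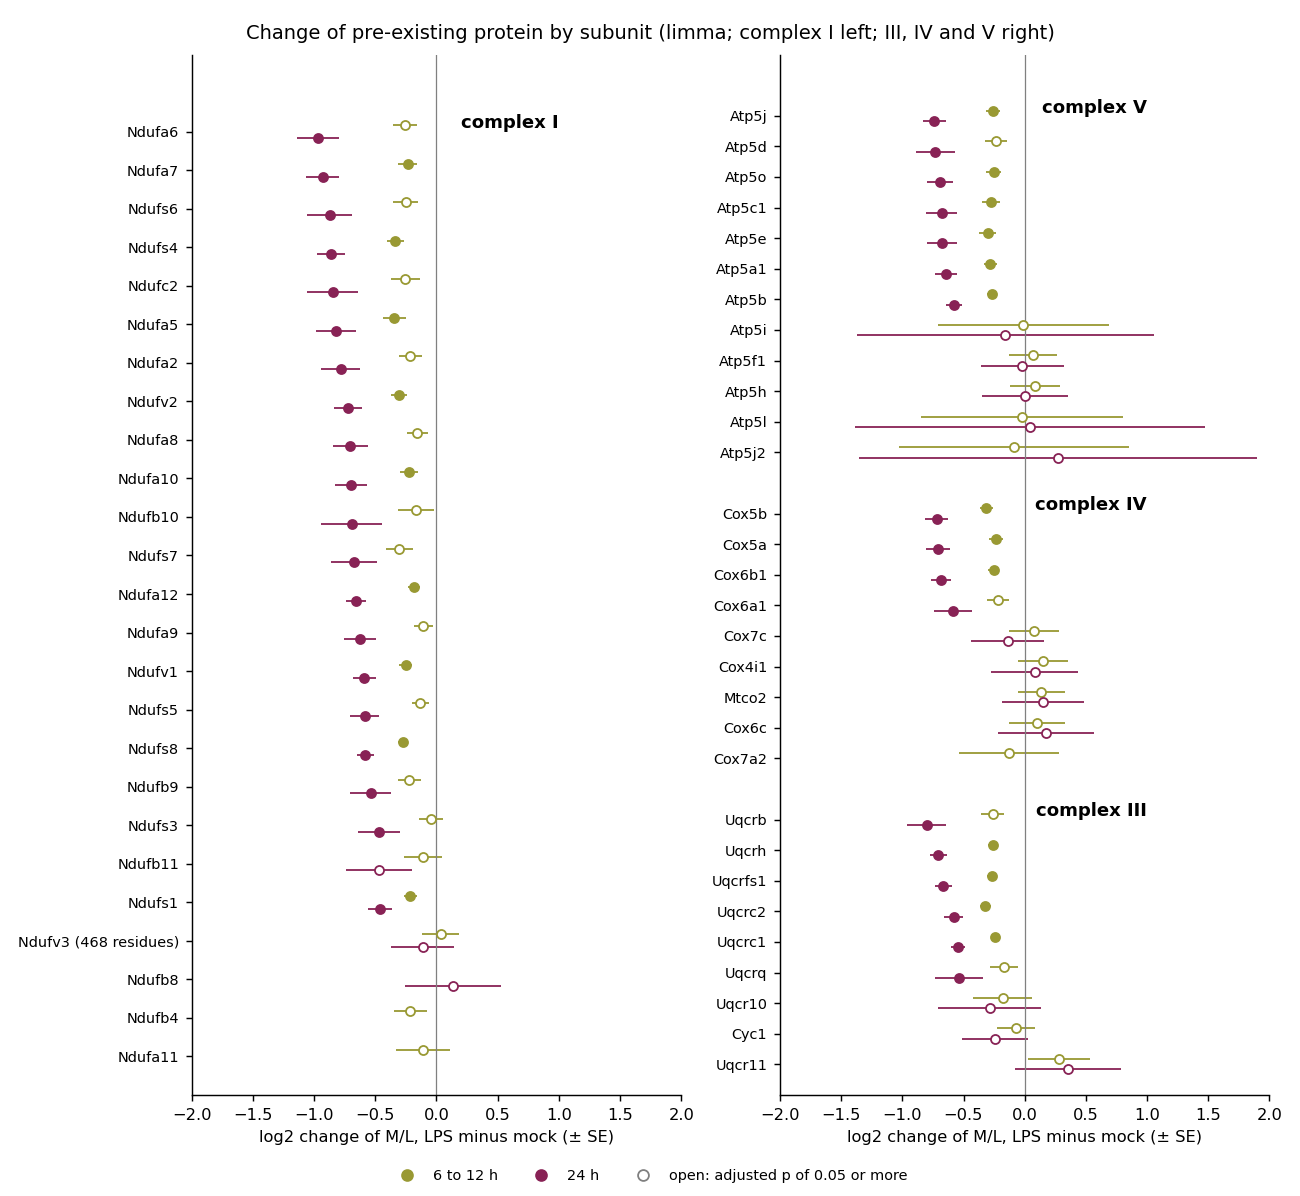
Log2 change of M/L, LPS minus mock, with its standard error, for tested subunits at 6 to 12 h (olive) and 24 h (purple), complex I on the left and complexes III, IV and V on the right; open circles were not called by limma. In complex I most purple points are filled, while Atp5i, Atp5l and Atp5j2 have the widest error bars.

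**Figure D4:**
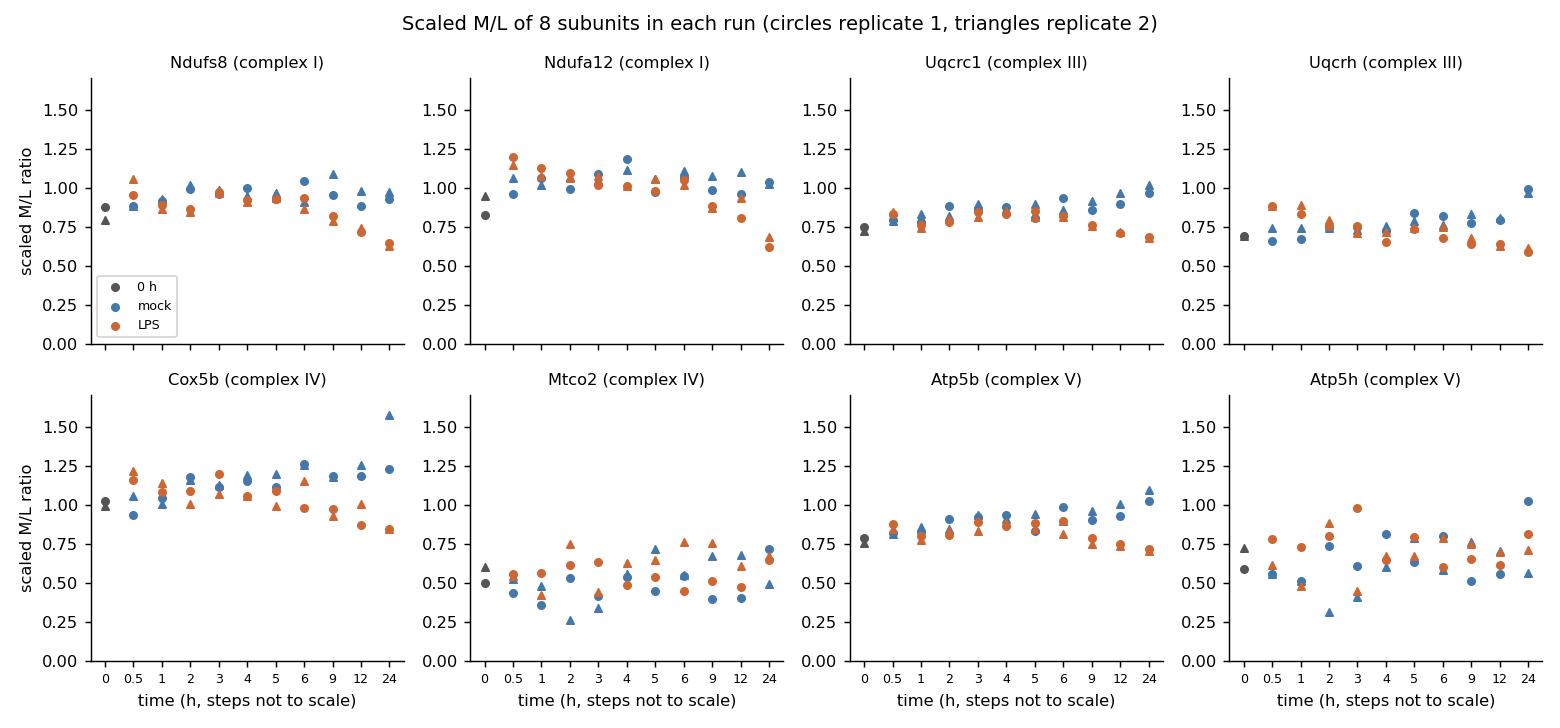
Scaled M/L of Ndufs8, Ndufa12, Uqcrc1, Uqcrh, Cox5b, Mtco2, Atp5b and Atp5h in each run against time (steps not to scale), with circles for the first and triangles for the second replicate, blue for mock, orange for LPS and grey for 0 h. Uqcrc1, Uqcrh and Atp5b separate by treatment from 9 h on, while the arms of Mtco2 and Atp5h overlap at 24 h.

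Each LPS run lay below each mock run at 24 h for 40 of 53 subunits, against 38.9% of all proteins, and over 6 to 12 h for 11 of 58, against 5.88%. The spread between the 2 runs of a group, as a replicate SD of log2 M/L, was 0.31 to 0.59 for the members and 0.22 to 0.31 for all proteins. Cox4nb, the protein outside the respiratory chain, was at -0.22 ± 0.09 at 6 to 12 h (adjusted p = 0.0965, limma) and changed by -0.61 ± 0.16 at 24 h.

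Total protein is the sum of M/L and H/L, and in these subunits most of it was M/L. It was therefore bound to follow M/L, and its counts are not independent of those above. Over 6 to 12 h, 20 of 54 subunits were lower in LPS than in mock cells (9.59% of all proteins), with a median of -0.20 against 0.00. At 24 h 34 of 52 were lower (20.1% of all proteins), with medians of -0.60 and 0.01, and 0 were higher in either window. With the second or the first replicate left out, 6 and 14 subunits were called at 6 to 12 h, and without the run factor 0 in either window (0 at an unadjusted p under 0.05, limma). At 24 h complex I counted 17 of 23 lower, complex III 6 of 9, complex IV 4 of 8 and complex V 7 of 12. With each ratio centred on its own run median, 20 of the 20 calls at 6 to 12 h and 33 of the 34 at 24 h were kept. Uqcrc1 had a total of 0.804 and 0.809 at 0 h, 1.22 and 1.28 in mock and 0.859 and 0.856 in LPS runs at 24 h, and Atp5b 0.849 and 0.808, 1.23 and 1.32, and 0.886 and 0.864. For both subunits the LPS runs lay between the 0 h and the mock runs. For total protein the change at 6 to 12 h was lower than at 1 to 3 h for 9 subunits (4.23% of all proteins), and that at 24 h lower than at 6 to 12 h for 19 (10.5%).

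The share of the iBAQ summed over M and H uses neither the L standard nor the run factor. At 24 h it too was lower in LPS than in mock runs. The 66 subunits held 1.96 and 1.98% of this iBAQ at 0 h, 2.48 and 2.61% in mock and 1.75 and 1.79% in LPS runs at 24 h. On this scale the LPS runs lay below the 0 h runs, unlike the scaled totals of Uqcrc1 and Atp5b. Complex V went from 1.13 and 1.13% to 1.43 and 1.47% in mock and 1.02 and 1.11% in LPS runs. At 24 h complex IV held 0.605 and 0.615% in mock and 0.371 and 0.427% in LPS runs. Complex III held 0.230 and 0.334% against 0.161 and 0.202%, and complex I 0.201 and 0.207% against 0.109 and 0.146%. The arms did not overlap at 24 h in any of the 4 complexes. Over 6 to 12 h the lowest, median and highest shares of all members were 2.12, 2.24 and 2.52% in mock and 1.89, 2.01 and 2.19% in LPS runs, which overlap.

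Against 0 h, total protein at 12 and 24 h rose in mock cells for 22 of 53 subunits (14.6% of all proteins), with a median of 0.33, although without the run factor this median was -0.02, with -0.36 for all proteins and 0 subunits called by limma (0 at an unadjusted p under 0.05). With the second or the first replicate left out, 8 and 14 subunits were called. The counts were 7 of 24 in complex I, 5 of 9 in III, 4 of 8 in IV and 6 of 12 in V. Uqcrc1 rose by 0.53 ± 0.05, Cox5a by 0.58 ± 0.08, Atp5o by 0.55 ± 0.09 and Ndufv2, a partner of Ndufv1 in the N module, by 0.48 ± 0.09. In LPS cells, against the same 0 h runs, 0 of 51 subunits rose and 2 fell (4.77% of all proteins), with a median of -0.03. These were Ndufa7 at -0.42 ± 0.13 and Ndufs8 at -0.23 ± 0.06.

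Scaled M/L alone rose in mock cells for 22 of 54 subunits (10.4% of all proteins), with a median of 0.25 where that of all proteins was -0.21. In LPS cells it fell for 15 of 53 (48.4% of all proteins), with a median of -0.15 against -0.24. Of these 15, 12 belonged to complex I, 2 to complex III and 1 to complex IV, and in complex V 0 of 12 fell. Ndufb11 had the lowest value, -0.72 ± 0.23, and Ndufa7 was at -0.70 ± 0.11. Both comparisons share the 0 h runs.

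Newly made subunits showed few calls between treatments with the un-normalised ratios. Over 6 to 12 h, limma called 0 of 54 subunits in H/L (4 at an unadjusted p under 0.05), where 10.6% of all proteins were higher, and the members' median was -0.17 against 0.03. By pair of runs, the members' median difference ran from -0.40 to 0.08. The deposited normalised ratios gave 8 calls and a median of -0.60, and without the run factor the median was -0.00011. For the normalised ratios no values of all proteins are given here. Between 1 and 3 h limma called 0 of 54 (4 at an unadjusted p under 0.05), where 0.356% of all proteins were higher. At 24 h 1 of 52 was lower, Cox6b1, against 2.33% of all proteins lower. Its H/L was 0.0683 and 0.0546 at 0 h, 0.240 and 0.291 in mock and 0.151 and 0.166 in LPS runs, a change of -0.74 ± 0.24 (adjusted p = 0.0498, limma). This call was lost without the first or the second replicate (adjusted p = 0.608 and 0.820, limma), without the run factor (0.750), with the deposited normalised ratios (0.122), with summed intensities (0.286) and after subtraction of the 0 h mean (0.888).

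With the replicate number as a block, 3 subunits were called lower in H/L at 24 h, Cox6b1, Uqcrh at -0.82 ± 0.27 (adjusted p = 0.0472, limma) and Uqcrc1 at -0.51 ± 0.17 (adjusted p = 0.0468). Uqcrc1 was at 0.250 and 0.256 in mock and 0.178 and 0.178 in LPS runs. In 36 of 52 subunits both LPS runs were below both mock runs at 24 h, against 26.2% of all proteins. The members' median H/L change there was -0.43 against 0.06 for all proteins. It was -0.19 without the run factor, -0.71 with the deposited normalised ratios, -0.28 with summed intensities and -0.74 after subtraction of the 0 h mean.

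H/L itself rose with time in both arms. Against 0 h, it was higher at 12 and 24 h for 26 of 53 subunits in mock cells (43.8% of all proteins) and for 17 of 51 in LPS cells (47.4%). Median log2 rises were 0.78 and 0.54 for the members and 0.88 and 0.94 for all proteins. In mock cells Atp5b rose by 1.56 ± 0.16 and Uqcrfs1 by 1.61 ± 0.19, and Mtco2, which is made inside the mitochondrion, by 0.78 ± 0.26.

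The share of H in H plus M was low and above 0 from the start. At 0 h, before any heavy medium, its median was 11.5 and 12.5% over 52 subunits and 13.2 and 12.3% over all proteins, which marks the floor of this ratio in these files. At 24 h it reached 18.4 and 19.8% in mock and 20.97 and 19.95% in LPS runs for the members. All proteins stood at 28.2 and 27.3% and at 31.2 and 29.1%. Complex I was highest among the complexes at 24 h with 26.1 and 21.4% in mock and 24.7 and 21.3% in LPS runs, and complex V lowest with 14.0 and 16.4% and 16.2 and 17.7%. The share of each complex at 0 h was not subtracted, so this is an order of levels and not of the rise since 0 h.

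**Figure D5:**
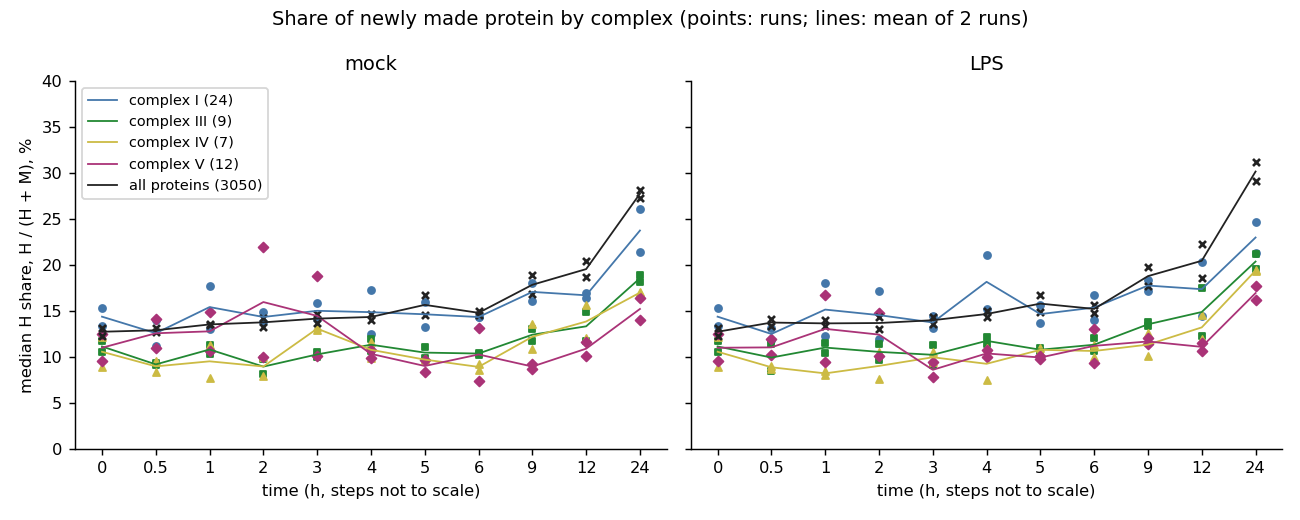
Median share of newly made protein, H over H plus M in percent, of complexes I (24 subunits), III (9), IV (7) and V (12) and of all proteins (3050, black crosses) in each run, mock on the left and LPS on the right; lines join the mean of 2 runs and time steps are not to scale. All curves start between 8.92 and 15.4% at 0 h, and at 24 h the black crosses lie above every complex.

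H/M, in which the run factor cancels, differed little between treatments. Over 6 to 12 h, 2 of 54 subunits rose (11.4% of all proteins), and the members' median of 0.04, which was -0.44 with the deposited normalised ratios, lay beside 0.08 for all proteins. Uqcrfs1 had H/M of 0.0546, 0.0909 and 0.116 (lowest, median and highest) in mock and 0.0891, 0.123 and 0.195 in LPS runs. These ranges overlap, and the change was higher in 6 of 6 pairs, at 0.55 (adjusted p = 0.0207, limma). Atp5e was at 0.0751, 0.126 and 0.216 in mock and 0.157, 0.229 and 0.365 in LPS runs, a change of 0.82 (adjusted p = 0.0413), higher in 5 of 6 pairs. With either replicate left out, limma called 0 subunits (0 at an unadjusted p under 0.05). At 24 h limma called 0 of 52 (1 at an unadjusted p under 0.05), against 7.88% of all proteins higher. Atp5i had a higher H/M change at 6 to 12 h than at 1 to 3 h, by 2.31 ± 0.68, the 1 subunit so called (6.81% of all proteins). Its median H/M in mock runs was higher at 1 to 3 h than at 6 to 12 h, and its M/L differed by replicate in every group.

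The change of the M share per hour from 0.5 to 12 h, a slope on the log2 scale and below 0 where the share was lost, had a median of -0.0037 over 55 subunits in mock cells, against -0.0083 over 3459 proteins, and 20 of the 55 slopes were above 0. These medians correspond to a loss of 3.01% and 6.67% over 12 h. The subunits' median was -0.00685 with the second replicate left out and 0.0121 with scaled M/L in place of the share. Medians were -0.0073 in complex I, -0.0062 in complex III, -0.0035 in complex IV and 0.0071 in complex V, and for 16 of 55 subunits the standard error was larger than the slope. In LPS minus mock, 3 of 54 slopes were lower (15.8% of all proteins). They were Uqcrfs1 (difference -0.0050 ± 0.0014, adjusted p = 0.0058, limma, from 1 fit of both arms with a common intercept), Atp5e (adjusted p = 0.0244) and Ndufa5 (adjusted p = 0.0263). The H share of Ndufa5 was already 28.3 and 59.0% at 0 h, and with the first or the second replicate left out limma called 0 slopes (3 and 6 at an unadjusted p under 0.05).

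Cytochrome c, the carrier between complexes III and IV, is listed under Gm10108 first, so the name rule leaves it out. Its H/L was 0.150 and 0.185 at 0 h. Over 6 to 12 h it was 0.158, 0.198 and 0.414 (lowest, median and highest) in mock and 0.365, 0.527 and 0.685 in LPS runs. The ranges overlap, yet each of 6 pairs was higher with LPS, and the change was 1.16 ± 0.26 (adjusted p = 0.00235, limma), with 1.49 ± 0.30 in H/M (adjusted p = 0.000863). At 24 h the H/L change was 0.08 ± 0.45, with 0.307 and 0.752 in mock and 0.485 and 0.530 in LPS runs. Its M/L changed by -0.66 ± 0.18 at 24 h (adjusted p = 0.00643, limma), with 0.691 and 0.680 in mock and 0.457 and 0.414 in LPS runs.

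Other mitochondrial proteins were tested from lists beside the subunits. In M/L at 24 h, where 27.6% of all proteins were called lower with a median of -0.07, both measured subunits of complex II, Sdha and Sdhb, were lower in LPS than in mock cells, at -0.47 ± 0.07 and -0.91 ± 0.07. Of 14 other mitochondrial proteins 9 were lower, with a median of -0.63, among them the matrix enzyme Cs, citrate synthase, at -0.62 ± 0.09. The inner membrane carriers Slc25a4 and Slc25a5, at 0.05 ± 0.33 and 0.10 ± 0.34, were not called. Of 2 further ATP synthase proteins outside the name rule, the inhibitor Atpif1 changed by -0.73 ± 0.11, and Mtatp8, encoded by mitochondrial DNA, was at 0.22 ± 0.32. Of 6 assembly factors 3 were lower, including Lrpprc, which binds mitochondrial transcripts, at -0.72 ± 0.08.

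Cell type markers moved with the same comparison. In M/L at 24 h, 5 of 7 granulocyte markers were lower in LPS than in mock cells, with a median of -0.96 (27.6% of all proteins, median -0.07), the exceptions being the abundant S100a8 and S100a9 at -0.27 ± 0.12 and 0.15 ± 0.06, as did 3 of 6 dendritic cell and leukocyte markers (median -0.47) and 2 of 2 platelet and erythroid markers. Summed iBAQ of the granulocyte list was 2.07 and 2.24% in mock and 1.50 and 1.71% in LPS runs at 24 h, and 8 of 8 lymphocyte markers had no group. The dendritic cell and leukocyte list was at 0.133 and 0.145% against 0.112 and 0.118%. Over 6 to 12 h the granulocyte list ran from 2.61 to 4.92% in mock and from 2.99 to 5.17% in LPS runs. Their part in the change of the subunits was not tested.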

How the data were processed

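Protein was measured by mass spectrometry in 42 trypsin runs of 21 groups and in 4 unlabelled samples. The authors deposited, per the file headers, for each protein group and run the un-normalised and normalised SILAC ratio, the ratio count (peptide pairs), the intensity of each channel and iBAQ. The build named in the submitters' processing notes is mm9, while a search engine, its settings and a sequence database were not given in the sources used here. Of 6266 groups, 5899 were kept after leaving out 90 reverse, 97 contaminant and 216 site-only entries, some of which overlap. Log2 of each un-normalised ratio minus the log2 run factor was fitted with limma 3.58.1 (R 4.3.3) on all 21 groups together. Benjamini-Hochberg adjustment ran over every protein tested, and a change was called under an adjusted p of 0.05. The windows were the means of 1, 2 and 3 h and of 6, 9 and 12 h (at least 4 of 6 values per arm), 24 h alone (2 of 2), and 12 with 24 h minus 0 h (at least 3 of 4). Slopes of the log2 M share against time used 0.5 to 12 h (at least 12 of 18 values per arm). Members were named where called (examples where many were), as the highest or lowest of a complex, or from a list of core subunits, and a few others to show a role. The members, lists and motifs were chosen with earlier results of these data known. Differences between the runs of replicate 2 and 1 correlated between mock and LPS at each time (M/L, r from 0.31 to 0.55 over proteins), so the numbers pair the runs. The runs of each group differed by a replicate SD of at least 0.22 in log2 M/L and were counted as 2, and no interval from counts is given, since the ratio counts are peptide pairs and not molecules. The fits were also run on simulated data with independent errors in each run, which lack the correlation between mock and LPS given above. Alternatives covered the run factor, the normalised ratios, channel intensities, ratio counts, missing values, the replicate block, each replicate, and the second LPS run at 12 h, the last chosen after seeing the data. Promoters were read with Python 3.11.15. Values of 1 member and of 1 other mitochondrial protein are not reported here, and both stay in the counts.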

Additional observations from a re-analysis of the deposited data

Results flagged for a closer look

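The results given here are tests of a difference between windows, the LPS minus mock change at a later time minus that at an earlier time, called by limma after adjustment over all proteins. In M/L the change was lower at 6 to 12 h than at 1 to 3 h for 8 members, against 5.17% of all proteins. The lowest values were in Atp5e, the F1 epsilon subunit, at -0.40 ± 0.10, and in Uqcrh at -0.37 ± 0.05. Between 24 h and 6 to 12 h the change was lower for 25 members, against 14.0% of all proteins. Ndufa6 at -0.71 ± 0.20 and Ndufa7 at -0.70 ± 0.15 had the lowest values. In total protein the earlier difference was called for 9 members, against 4.23% of all proteins. Among them were Uqcrh at -0.37 ± 0.06 and Ndufa8, an accessory subunit of complex I, at -0.35 ± 0.10. The later difference was called for 19 members, against 10.5% of all proteins. Ndufa9, another accessory subunit, was at -0.91 ± 0.27 and Ndufa7 at -0.66 ± 0.17. In H/M the difference between 6 to 12 h and 1 to 3 h was higher for 1 member, against 6.81% of all proteins. That member was Atp5i, at 2.31 ± 0.68. Its H/M at 1 to 3 h was 0.270, 0.416 and 0.666 (lowest, median and highest) in mock and 0.0666, 0.141 and 0.219 in LPS runs, which do not overlap. At 6 to 12 h these were 0.0660, 0.131 and 0.554 against 0.122, 0.208 and 0.458. The mock median was thus lower in the later window. The M/L of Atp5i was also higher in the first than in the second run of every group.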

How the results depend on the processing

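Leaving out the run factor left 0 members called (0 at an unadjusted p under 0.05, limma) in M/L at 6 to 12 h and 24 h, total protein at 6 to 12 h and 24 h, H/L at 24 h and total protein over time in mock cells, with medians of -0.0597, -0.387, -0.0559, -0.364, -0.187 and -0.0195, and an H/L median of -0.00011 at 6 to 12 h. Relative to the median of all proteins in the same fit these were -0.205, -0.561, -0.222, -0.609, -0.486, 0.344 and -0.196. Fits without the run factor had no replicate block and hold the offset between replicates in their spread. Over time in mock cells Ndufs8, Ndufs1, Ndufa10 and Uqcrb then had the opposite sign, -0.12, -0.052, -0.069 and -0.0032. The deposited normalised ratios gave 8 members and a median of -0.605 in H/L at 6 to 12 h, 2 and 0.27 at 1 to 3 h, and -0.71 at 24 h. For total protein they gave a median of -0.405 at 6 to 12 h, 15 members at 24 h, and 39 members with 1.16 over time in mock cells. Their medians were -0.436 in H/M at 6 to 12 h and -0.547 in M/L at 24 h. Centring each ratio on its own run median gave 1 member in H/L and 1 in H/M at 6 to 12 h, 2 in H/L at 24 h (median -0.52), and -0.517 in M/L at 24 h. Summed intensities gave 13 members in M/L and 7 in total protein (median -0.112) at 6 to 12 h and 0 in H/M (1 at an unadjusted p under 0.05, limma). At 24 h they gave 20 in total protein (median -0.472), and medians of -0.544 in M/L and -0.277 in H/L, and they gave 11 over time in mock cells. There Ndufs5 in M/L, at 0.15, and Ndufs3 in total protein, at 0.20, had the opposite sign at 24 h. At least 4 peptide pairs gave 1 member in H/L at 6 to 12 h and 2 at 24 h (median -0.383), members with every value 1 in H/L at 6 to 12 h, and a fit on the compared groups alone 14 in M/L at 6 to 12 h. Subtracting the mean at 0 h gave 0 members in H/L at 24 h (4 at an unadjusted p under 0.05, limma) and a median of -0.736. The replicate block kept 143 of 143 calls. It gave 3 members in H/L at 24 h, 28 in M/L and 24 in total protein at 6 to 12 h, and 35 in total protein at 24 h. The slope difference was called for 5 members over 0.5 to 24 h and for 27 with scaled M/L (median -0.0231), where the median slope in mock cells was 0.0121. Without the second LPS run at 12 h, 25 members were called in M/L at 6 to 12 h and 22 of the 23 calls kept, 1 member was called in H/L, and the H/M median was 0.13. The cause was not tested for any of these. Apart from the fits without the run factor, called shares and medians of all proteins in these alternatives are not given here. Their counts and medians are thus not set against all proteins, and a shift common to all proteins may lie in them.

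With either replicate left out, fits pooled the times of an arm, and a lone sample was assumed to vary like the others. Members called ranged from 3 to 15 in M/L and from 6 to 14 in total protein at 6 to 12 h and from 8 to 14 over time in mock cells, and were 0 in H/M at 6 to 12 h, H/L at 24 h and the slope difference. At 24 h they were 32 to 34 in M/L and 27 to 28 in total protein. Medians ranged from -0.448 to -0.422 in H/L and from -0.609 to -0.553 in total protein at 24 h, from -0.0066 to 0.104 in H/M at 6 to 12 h, from -0.0769 to 0.127 in H/L at 1 to 3 h, and from -0.00685 to -0.00424 per h for the slope in mock cells. Among called members, 934 of 1305 checks kept direction and call, 365 kept the direction alone and 6 had the opposite sign. Peptide pairs per value, from 2 in some subunits, limit the precision of single members, and no depth in molecules is known.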
